A study of Mus musculus with 24 samples.

Results

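Transcripts of 10 microtubule genes that are commonly used to describe neurons were followed in 3 mouse RNA libraries. The genes were chosen by name: the tubulin subunits Tuba1a, Tubb2a, Tubb2b and Tubb3, the stathmins Stmn1 and Stmn2, and the microtubule-associated proteins Dcx, Map2, Mapt and Map1b. All 10 were present among the 23947 gene symbols of the deposited expression table. The wider study profiled Pax6 binding, chromatin marks and RNA in embryonic forebrain and newborn lens of CD-1 mice. One RNA library came from forebrain dissected at E12.5, one from lens epithelium at P1 and one from lens fibers at P1. No allele, transgene or treatment is named for any of the 3, and the labels do not say how many animals were pooled. Total RNA was sequenced from strand-specific libraries. With 1 library per tissue there was no replicate spread, so every difference below compares libraries and carries no test. Tissue and age cannot be told apart between forebrain and lens. The samples were bulk tissue, in which fewer cells of a type and less RNA per cell cannot be told apart.

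Microtubules are hollow polymers of alpha- and beta-tubulin pairs. In young neurons they fill the growing axon and dendrites, and neurons express particular tubulin genes, proteins that bind and stabilise the polymer such as doublecortin, MAP2 and tau, and stathmins, which bind free tubulin and favour disassembly. The lens has no neurons. Its epithelium is a single layer of dividing cells, and its fibers are very long cells that derive from the epithelium, fill with crystallins and hold bundles of microtubules along their length.

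Levels are given in RPKM, read numbers scaled to transcript length and to the mapped reads of the library, as the authors deposited them. Summed over all genes, they came to 598020 RPKM in forebrain, 587475 in epithelium and 2603161 in fibers, and to 597913, 565764 and 802835 without crystallins. The fiber column thus has a larger total, whether the columns were scaled to each other is not stated, and a level in fibers compared with another library rests on that scale. Ratios are log2((RPKM + 1)/(RPKM + 1)), which understates differences of genes with low values, and 4-fold (a log2 ratio of 2) is the size used for counts, over genes that reached 1 RPKM in one or the other library. The 16 crystallins listed made up 0.0411% of the protein-coding RPKM in forebrain, 9.08% in epithelium and 85.5% in fibers. The median ratio of genes that reached 1 RPKM on both sides was -0.05 for epithelium to forebrain, -0.19 for fibers to forebrain and -0.20 between fibers and epithelium. Markers fitted the labelled tissues: 10 of 10 lens epithelium markers were at least 4-fold higher in epithelium than in forebrain, and 11 of 12 fiber markers were at least 4-fold higher in fiber than in epithelium. The lens libraries were less distinct in the other direction: 4 of the 10 epithelium markers were at least 4-fold lower in fibers than in epithelium, and Clu (237.6 RPKM in epithelium and 450.5 in fibers) and Pitx3 (35.0 and 37.3) were not lower. Fiber markers were also present in epithelium, where the 10 that reached 1 RPKM were all at least 4-fold above forebrain, Cryaa at 11820 RPKM among them. Markers of other cells were also present. The 6 endothelium markers ran from 5.24 to 38.3 RPKM in epithelium, from 2.46 to 17.8 in forebrain and from 0 to 1.14 in fibers, where Cdh5, Emcn and Cldn5 were listed at 0. The 6 blood markers summed to 1266 RPKM in forebrain, 172.2 in epithelium and 3.87 in fibers, and the 6 retina markers to 6.99, 19.3 and 1.47. The part of such cells in the results below was not tested.

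Against forebrain, the genes divided into those that were low in both lens libraries and those that were low in lens epithelium but not, or less so, in lens fibers. In lens epithelium, 9 of the 10 genes were at least 4-fold lower than in forebrain, while 3.25% of the 12619 genes compared were that much lower. The exception was Tuba1a, with a log2 ratio of -1.96, just inside the limit. None was at least 4-fold higher, beside 4.68% of all genes, and the median ratio of the 10 genes was -3.45, beside -0.03 over all genes compared. In lens fibers, 7 of the 10 were at least 4-fold lower than in forebrain, beside 11.4% of 12205 genes, with a median of -3.61 beside -0.41. None was at least 4-fold higher, beside 6.37%. The count of 7 includes Stmn2, which was listed at 0 in fibers, and the other 3 genes were Tuba1a, Tubb2a and Map1b.

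**Figure D1:**
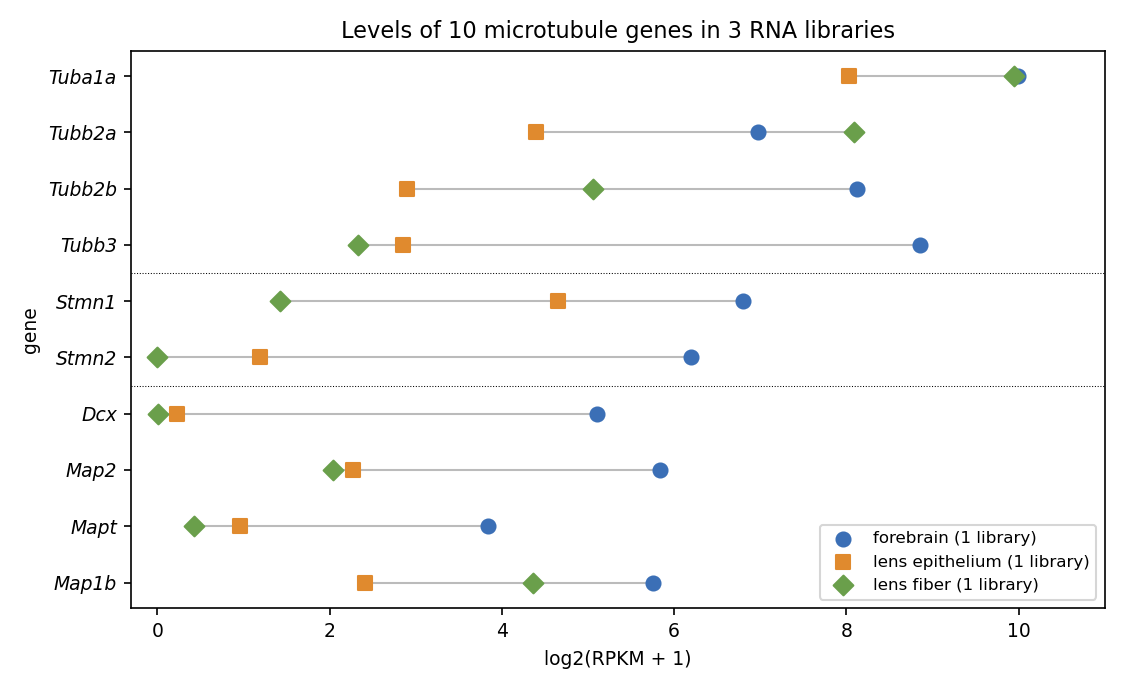
Level of each gene as log2(RPKM + 1) on the x axis, with the genes on the y axis grouped into tubulins, stathmins and microtubule-associated proteins. Each point is 1 library and there are no error bars; Tubb3, Dcx, Map2 and Mapt lie low in both lens libraries, while Tuba1a, Tubb2a, Tubb2b and Map1b lie higher in fiber than in epithelium.

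Between the lens libraries, the genes went in both directions. Of the 8 genes that reached 1 RPKM in lens, Tubb2a and Tubb2b were at least 4-fold higher in fibers than in epithelium, beside 3.75% of the 12090 genes compared, and Stmn1 was at least 4-fold lower, beside 8.12%. Map1b (1.96) and Tuba1a (1.91) lay just under the limit on the higher side. The median of the 8 was 0.84 and that of all genes compared -0.42. Dcx and Mapt were under 1 RPKM in both lens libraries and were not compared. With 2 of 8 genes higher and 1 of 8 lower, the counts rest on few genes, and they moved with the scaling: centred on the median of genes present in both libraries, 4 were higher, and with the libraries rescaled to equal totals without crystallins, 1 was.

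**Figure D2:**
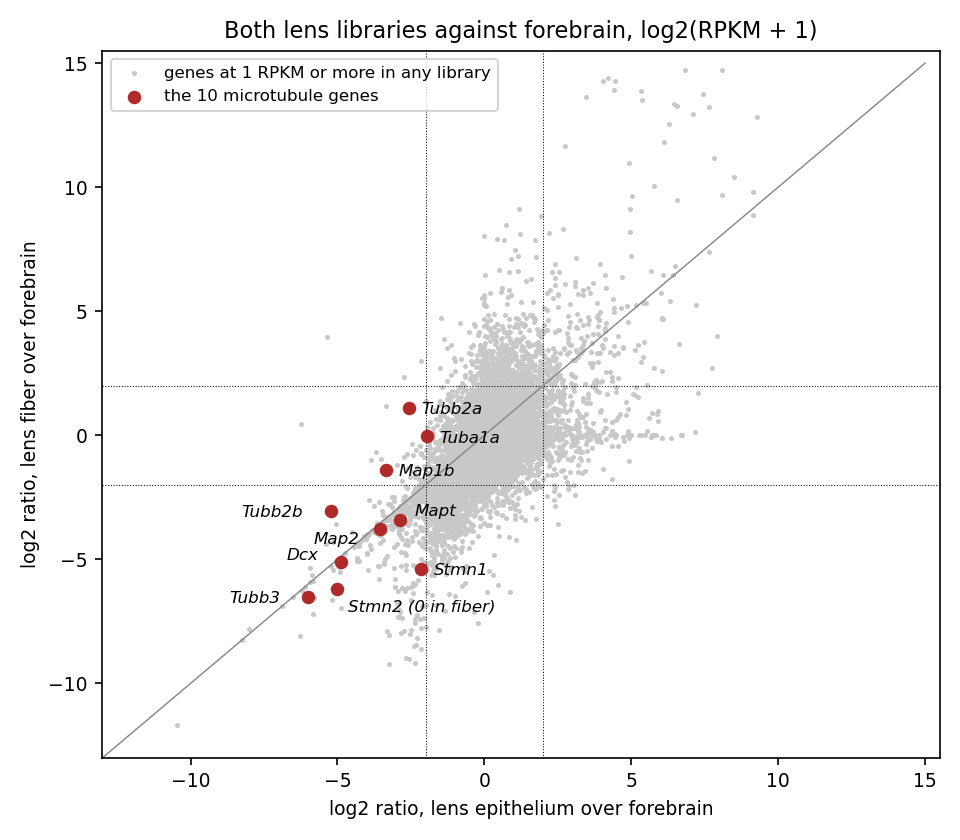
Log2 ratio of lens epithelium over forebrain (x axis) and of lens fiber over forebrain (y axis), for the 10 genes (red) and all genes at 1 RPKM or more in any library (gray), with the diagonal as a line and 4-fold limits dotted. Stmn2, listed at 0 in fiber, is drawn at the value the pseudocount gives. Both axes share the forebrain library; Tubb3, Dcx, Map2 and Mapt lie near the diagonal, while Tubb2a, Tuba1a, Map1b and Tubb2b lie above it and Stmn1 below it.

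The stretch just before the start of transcription is shown for genes of both kinds. Tubb3 and Dcx stand for the genes that were low in both lens libraries, and Tubb2a and Map1b for those that were higher in fibers than in epithelium. The sequences are the 250 bases upstream of the RefSeq start, 5′ to 3′ on the gene's strand, in build GRCm38.p6. They lie at chr8:123411303-123411552 (plus strand) for Tubb3, chrX:143933220-143933469 (minus strand) for 1 of 2 listed Dcx starts, chr13:34078009-34078258 (minus) for Tubb2a and chr13:99516603-99516852 (minus) for Map1b. Capitals mark matches, on either strand, to any of 4 motifs that were searched: the E-box CANNTG, which proneural factors among others bind, the GC box, written GGGCGG, the CCAAT box of many promoters, and the TATA motif, written TATAAA.
Tubb3: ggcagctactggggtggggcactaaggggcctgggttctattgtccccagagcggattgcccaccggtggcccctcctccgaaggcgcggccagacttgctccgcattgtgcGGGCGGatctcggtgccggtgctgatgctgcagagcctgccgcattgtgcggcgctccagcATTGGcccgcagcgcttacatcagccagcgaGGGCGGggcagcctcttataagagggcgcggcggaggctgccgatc
Dcx: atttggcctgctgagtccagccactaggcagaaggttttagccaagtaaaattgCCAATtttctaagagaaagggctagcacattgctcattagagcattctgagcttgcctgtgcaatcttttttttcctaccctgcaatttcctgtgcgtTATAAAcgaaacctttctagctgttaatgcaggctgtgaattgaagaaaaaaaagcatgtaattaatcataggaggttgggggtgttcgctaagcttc
Tubb2a: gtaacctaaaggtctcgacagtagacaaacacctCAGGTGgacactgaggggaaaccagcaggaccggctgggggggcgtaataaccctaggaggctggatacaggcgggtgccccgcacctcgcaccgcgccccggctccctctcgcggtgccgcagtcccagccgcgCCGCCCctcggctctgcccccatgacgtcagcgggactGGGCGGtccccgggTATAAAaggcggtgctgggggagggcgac
Map1b: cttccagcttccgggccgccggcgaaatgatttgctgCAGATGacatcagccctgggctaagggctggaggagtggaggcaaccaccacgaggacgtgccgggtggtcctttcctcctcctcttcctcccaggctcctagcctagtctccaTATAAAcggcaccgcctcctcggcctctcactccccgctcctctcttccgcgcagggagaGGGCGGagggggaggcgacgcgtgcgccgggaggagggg
The TATAAA match began 29 bases before the start in Tubb2a, 99 in Map1b and 98 in this Dcx window, and the Tubb3 window held none. Promoters were listed for 6 of the 10 genes, as 7 windows (Tubb3, Dcx with 2 that overlap and share their TATAAA match, Tubb2a, Map1b, Map2 and Tuba1a), and not matched for Tubb2b, Stmn1, Stmn2 and Mapt. TATAAA was in 4 of these 7 windows and in 12.4% of 32851 windows of the same length, GGGCGG in 5 of 7 and 32.7%, CCAAT in 3 of 7 and 33.8%, and CANNTG in 3 of 7 and 66.2%. G and C made up 68% of the Tubb3 and 41.6% of the Dcx window shown, beside a median of 52.4% over all windows. These 2 genes, both at least 4-fold lower in each lens library than in forebrain, thus have windows of unlike base composition.

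Among the tubulin subunits, Tubb3, the beta-tubulin used most widely as a marker of neurons, reached 460.6 RPKM in forebrain against 6.23 in lens epithelium and 4.04 in fibers. The log2 ratio to forebrain was -6.00 in epithelium and -6.52 in fibers. Between the lens libraries it differed by -0.52. Ranked among protein-coding genes from the highest, Tubb3 was number 69 in forebrain and 6409 in epithelium. It was thus among the highest genes in forebrain and near the middle of the range in lens.

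Tubb2b, another beta-tubulin abundant in the developing brain, was at 277.1 RPKM in forebrain, 6.48 in epithelium and 32.4 in fibers. The ratio to forebrain was -5.22 in epithelium and -3.06 in fibers, and fibers exceeded epithelium by 2.16, or by 1.68 with the libraries rescaled without crystallins. Tubb2a, which like Tubb2b lies on chromosome 13, was at 124.4 RPKM in forebrain, 20.0 in epithelium and 271.3 in fibers. It was the only one of the 10 genes with its highest level in a lens library on the deposited scale and under either rescaling. After centring, Tuba1a was also slightly higher in fibers than in forebrain (0.15). The log2 ratio of Tubb2a to forebrain was -2.58 in epithelium and 1.12 in fibers, and fibers exceeded epithelium by 3.70. Forebrain held 2.23 times as much Tubb2b as Tubb2a, whereas epithelium held 3.09 times and fibers 8.38 times as much Tubb2a as Tubb2b. These ratios within a library do not depend on how the libraries were scaled. The coding sequences of tubulin genes are much alike, and the sources used here do not say how reads with several matches were assigned, so the split between near-identical copies is uncertain.

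Tuba1a, the main alpha-tubulin of young neurons, was the most abundant of the 10 genes in each library, with 1015 RPKM in forebrain, 260.0 in epithelium and 982.4 in fibers. It ranked number 30, 94 and 51 among protein-coding genes. Epithelium lay below the other libraries, with a ratio of -1.96 to forebrain and of 1.91 for fiber over epithelium. On the deposited scale forebrain and fiber were close, at -0.05 for fiber over forebrain, and the sign of that small difference depended on the scaling (0.15 after centring, -0.47 after rescaling without crystallins). Tuba1a therefore did not set forebrain apart from fibers on any of these scales in the way that Tubb3 did.

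To describe isotype use without comparing scales between libraries, each gene was expressed as a share of the summed RPKM of its family. Tubb3 made up 24.6% of beta-tubulin RPKM in forebrain, 1.25% in epithelium and 0.358% in fibers. Tubb2b made up 14.8%, 1.30% and 2.87%, and Tubb2a 6.64%, 4.01% and 24.0%. The 3 genes together gave 46.0% of beta-tubulin RPKM in forebrain, 6.56% in epithelium and 27.2% in fibers. Tubb5, the beta-tubulin found in most dividing cells, was the largest share in forebrain (46.9%) and in epithelium (73.5%), and in fibers Tubb4b (33.5%) exceeded it (25.7%). Tubb6 made up 0.399% in forebrain, 2.88% in epithelium and 13.3% in fibers, where it stood at 150.1 RPKM against 7.47 in forebrain. Each library thus had its own mixture: Tubb5 with Tubb3 and Tubb2b in forebrain, mostly Tubb5 in epithelium, and Tubb4b, Tubb5, Tubb2a and Tubb6 in fibers. Among alpha-tubulins Tuba1a dominated everywhere, at 91.4%, 85.9% and 97.5%. Tuba1c made up 3.59% and 5.24% in forebrain and epithelium and 0.0169% in fibers. Summed over its 8 genes, beta-tubulin stood at 1873, 498.8 and 1130 RPKM and alpha-tubulin at 1110, 302.7 and 1007, so beta exceeded alpha by 1.69, 1.65 and 1.12 times. As a share of protein-coding RPKM, alpha- and beta-tubulin together made up 1.14% in forebrain, 0.335% in epithelium and 0.101% in fibers, where crystallins made up most of the total.

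**Figure D3:**
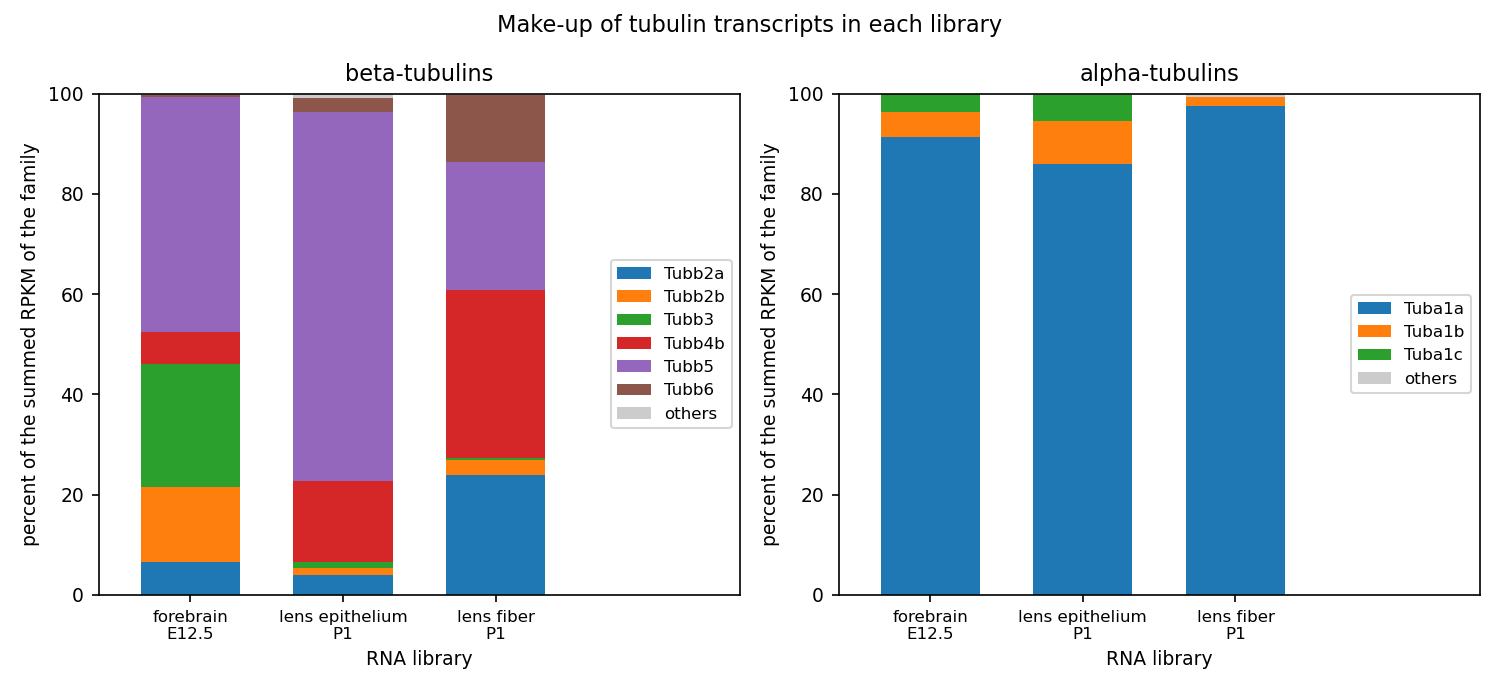
Share of each gene in the summed RPKM of its family (y axis, percent) in each of the 3 libraries (x axis), for beta-tubulins on the left and alpha-tubulins on the right; genes under 1% in every library are joined as others. Tubb3 and Tubb2b are visible mainly in forebrain, Tubb2a, Tubb4b and Tubb6 take larger shares in fibers, and Tuba1a is at least 85.9% of alpha-tubulin throughout.

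The stathmins bind tubulin dimers and promote disassembly of the polymer. Stmn1, which is also expressed in dividing cells, was at 110.8 RPKM in forebrain, 24.2 in epithelium and 1.69 in fibers. Its log2 ratio to forebrain was -2.15 in epithelium and -5.38 in fibers, and that of fibers to epithelium was -3.23. The first of these was -1.89, short of 4-fold, when libraries were rescaled on protein-coding genes without crystallins. With the pseudocount of 1 RPKM, Stmn1 was the only one of the 8 genes compared that was at least 4-fold lower in fibers than in epithelium. With a pseudocount of 0.1, 2 were. Stmn2, also called SCG10 and enriched in growth cones, was at 72.4 RPKM in forebrain and 1.29 in epithelium, a ratio of -5.00, and was listed at 0 in fibers. Both stathmins thus had the order forebrain, epithelium, fibers. Their relatives were also highest in forebrain: Stmn3 was at 145.8 RPKM in forebrain, 1.61 in epithelium and listed at 0 in fibers, and Stmn4 at 9.03, 0.184 and 0.605.

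Among the microtubule-associated proteins, Dcx, the doublecortin of migrating neurons, was at 33.3 RPKM in forebrain, 0.170 in epithelium and 0.00634 in fibers. In fibers it was among the lowest values listed above 0, at percentile 0.107 of the 14933 genes above 0. Map2, which marks dendrites, was at 56.0, 3.84 and 3.10 RPKM, with ratios to forebrain of -3.56 in epithelium and -3.80 in fibers, and a difference of -0.24 between the lens libraries. Mapt, which encodes the axonal protein tau, was at 13.3, 0.942 and 0.343 RPKM, with ratios of -2.88 and -3.41. In the RefSeq table, Map2 overlaps 4 small or noncoding genes and Mapt 1, and the other 8 genes overlap none. These 3 genes were high only in the forebrain library of the 3. Map1b, a protein of growing axons, was at 53.1 RPKM in forebrain, 4.32 in epithelium and 19.6 in fibers. Its log2 ratio to forebrain was -3.35 in epithelium and -1.39 in fibers, and fibers exceeded epithelium by 1.96 (1.49 when rescaled without crystallins, 2.16 when centred). Its order, with fibers between forebrain and epithelium, was that of Tubb2b and, on the deposited scale, of Tuba1a. It was not that of the other 3 microtubule-associated proteins.

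Doublecortin-like kinases carry the same tubulin-binding domain as Dcx. Dclk1 stood at 16.7 RPKM in forebrain, 8.59 in epithelium and 0.217 in fibers, and Dclk2 at 19.3, 1.91 and 0.108. Of the 4 stathmin and doublecortin family genes compared besides the 10, 3 were at least 4-fold lower in epithelium and 4 in fibers (Stmn3, listed at 0, among them) than in forebrain, with medians of -2.94 and -4.03. Dclk1, at -0.88 in epithelium, was the one that was not. Of all genes compared with forebrain, 3.25% were that much lower in epithelium and 11.4% in fibers.

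Neuron markers gave a setting for these levels. Of the 19 neuron markers compared with forebrain, 11 were at least 4-fold lower in epithelium, beside 3.25% of all genes, and 14 in fibers, beside 11.4%. With the pseudocount none was that much higher, beside 4.68% and 6.37% of all genes. Without it, Nefm, Snap25, Syt1 and Neurod1 were also more than 4-fold lower in epithelium. Nefm and Sncg, the latter listed at 0, were then also lower in fibers, and Eno2 was 4.23-fold higher in fibers. Their sum was 207.7 RPKM in forebrain, 48.5 in epithelium, of which the cell adhesion gene Ncam1 gave 32.8, and 22.8 in fibers, of which the enolase gene Eno2 gave 13.0. Some markers were higher in lens than in forebrain: Ncam1 (16.2 RPKM in forebrain) and Sncg (1.39 in forebrain and 2.87 in epithelium) in epithelium, Rbfox3 (1.30 in forebrain and 1.93 in fibers) in fibers, and Eno2 (3.07 in forebrain) in both. In fibers Nefl, Ina, Snap25, Gap43, L1cam and Sncg were listed at 0, and in epithelium the 20 markers had a median of 0.378 RPKM, with none at 0. The neuronal transcription factor gene Neurod6 was at 38.4 RPKM in forebrain, 0.0490 in epithelium and 0.0328 in fibers. The levels of Tuba1a, Tubb2a and Map1b in fibers thus stood beside low or zero values of most neuron markers, and none of these 3 genes differed 4-fold between fibers and forebrain.

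The genes nearest to each of the 10 over the 3 libraries were found by Euclidean distance in log2(RPKM + 1) among 20408 protein-coding genes, a measure that uses level as well as pattern and rests on 3 values per gene. For Dcx the nearest was Neurod6 (distance 0.26), followed by Ly6h (0.33) and Neurog2 (0.49). For Tubb2a it was Uchl1, a ubiquitin hydrolase gene, at 115.1 RPKM in forebrain, 28.6 in epithelium and 304.2 in fibers (distance 0.53), well ahead of Pcbp4 (1.44). Mapt lay nearest to Phf21b (0.19), Stmn1 to Fez1 (0.43), Stmn2 to Ttr (0.57), Map2 to Mex3b (0.67) and Map1b to Cenpv (0.89). Tubb3, Tubb2b and Tuba1a had no such close gene, with Id4 (1.59), Basp1 (1.75) and Pkm (1.29) the nearest. Gpm6b was among the 3 nearest of both Tubb2b (1.92) and Map1b (1.07).

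The remaining genes that build, bind or modify microtubules, 135 besides the 10, were described by list. Only those that reached 1 RPKM in one or the other library were counted, so each count is out of fewer than 135 genes. The counts were not turned into shares, so a small excess over all genes cannot be read from them. In epithelium 12 were at least 4-fold lower than in forebrain, beside 3.25% of all genes compared, and 2 higher, beside 4.68%. In fibers 39 were lower, beside 11.4%, and 9 higher, beside 6.37%. The same shares of all genes apply to each list below. Mitotic kinesins and spindle proteins, which form and move the spindle, accounted for 3 of the 12 and 19 of the 39, with list medians of -1.70 in epithelium and -4.08 in fibers. Those lower in epithelium were Kif2c, Kif20a and Tpx2, with log2 ratios of -2.12, -2.08 and -2.03. Examples in fibers were the spindle midzone protein gene Prc1, at 55.1, 13.4 and 0.515 RPKM, and the kinesin gene Kif11, at 38.5, 10.6 and 0.503. Numa1, which also has roles outside mitosis, was the one of the 20 that was not 4-fold lower in fibers, at 21.8, 25.9 and 21.8 RPKM.

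Among 13 other microtubule-associated proteins, 12 of which were compared with forebrain, none was 4-fold lower in either lens library with the pseudocount. Without it, Tppp (1.82 RPKM in forebrain, 0.18 in epithelium and 0.0221 in fibers) was more than 4-fold lower in both. Map7d1 (15.2, 5.37 and 3.09) and Jakmip1 (1.27, 0 and 0.246) were then more than 4-fold lower in fibers, and Jakmip1 was listed at 0 in epithelium. Map7, a kinesin-1 cofactor of epithelia, was at 0.873 RPKM in forebrain, 80.4 in epithelium and 24.1 in fibers, and Tppp3, a tubulin polymerisation-promoting protein gene, at 4.62, 83.9 and 138.3. Map6, which stabilises microtubules against cold, was at 7.39, 4.46 and 29.0 RPKM, a ratio of 2.46 for fiber over epithelium. The lens libraries thus held other microtubule-binding proteins at levels above those of Dcx, Map2 and Mapt. The collapsin response mediator genes, whose products bind tubulin in growth cones, lay on the other side: Crmp1 was at 46.3, 0.563 and 0.0489 RPKM and Dpysl3 at 99.2, 11.3 and 0.430. Of the 22 end-binding and collapsin response genes, 3 were at least 4-fold lower in epithelium and 7 in fibers, and Ndel1, which works with dynein, was 4-fold higher in fibers (16.7, 18.8 and 70.0 RPKM).

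Of 19 genes of tubulin folding and modification, 0 passed 4-fold in epithelium with the pseudocount. Without it, Ttll1 was more than 4-fold lower there, at 8.24 RPKM in forebrain and 1.55 in epithelium. In fibers 3 of the 19 were lower, beside 11.4% of all genes, and 2 higher, beside 6.37%. The list medians were -0.48 in epithelium and -0.26 in fibers, beside -0.03 and -0.41 over all genes compared. Tbcb, a tubulin folding cofactor gene, was at 47.7 RPKM in forebrain, 33.7 in epithelium and 232.4 in fibers, and Sirt2, which encodes a deacetylase that acts on tubulin, at 6.64, 4.39 and 43.3. Vash1, part of a tubulin carboxypeptidase, went the other way, at 13.9, 3.73 and 1.28 RPKM. Of 14 genes of the gamma-tubulin ring and microtubule nucleation, 0 passed 4-fold in epithelium and 2 were lower in fibers (Haus6 and Nedd1), and the gamma-tubulin gene Tubg1 was at 19.0, 18.7 and 26.6 RPKM. The general nucleation and folding genes thus had medians nearer to those of all genes than the 10 microtubule genes had.

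**Figure D4:**
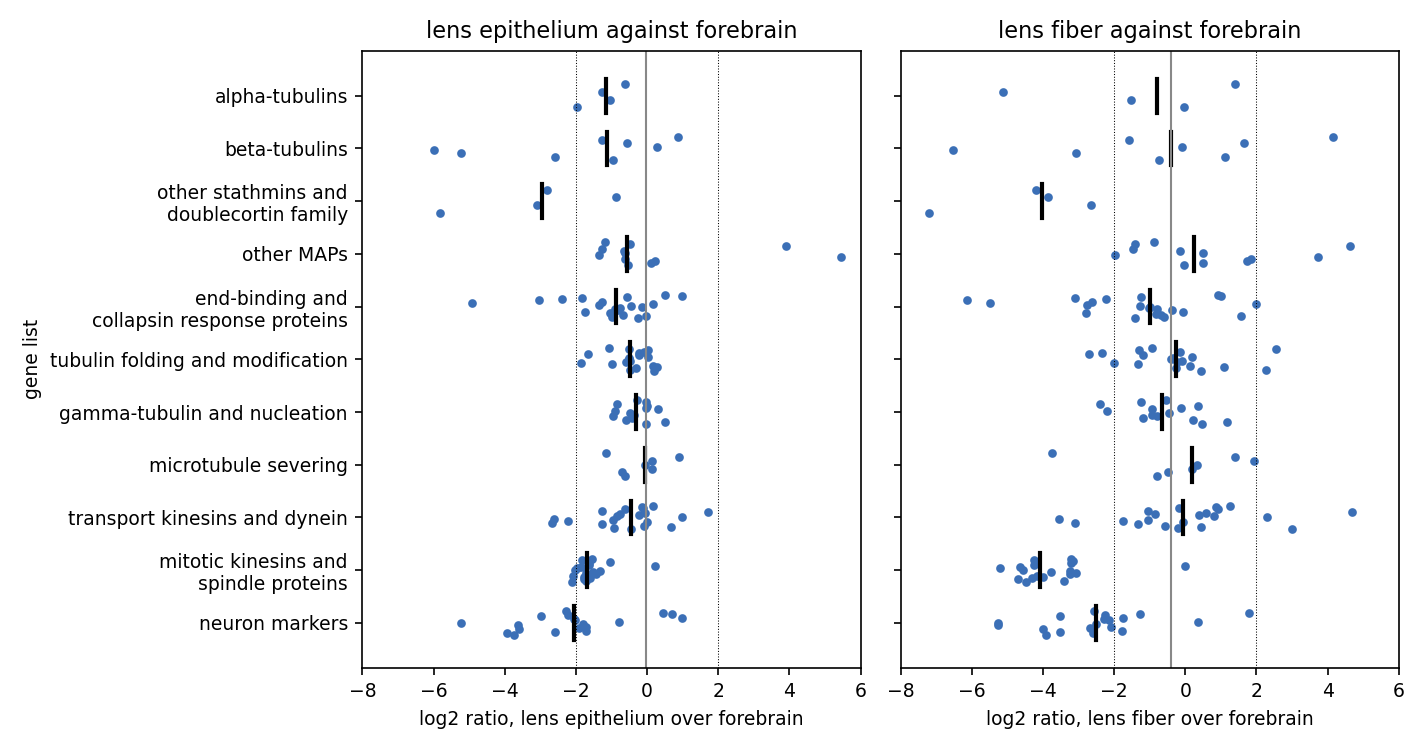
Log2 ratio over forebrain (x axis) of each gene compared, as points, for 10 microtubule gene lists and the neuron markers (y axis), in lens epithelium (left) and lens fiber (right). Black bars are list medians, the gray line is the median of all genes compared and dotted lines mark 4-fold; the tubulin lists include Tuba1a, Tubb2a, Tubb2b and Tubb3, and genes listed at 0 in a lens library are drawn at the value the pseudocount gives.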

How the data were processed

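The authors deposited RPKM, with 1 column for each of 3 RNA libraries. Per the submitters' processing notes, TopHat2 (version 2), Cufflinks (version 2), Cuffdiff and build mm9 were used, with no roles given. The annotation, how multiply matching reads were counted and whether columns were scaled to each other: not given in the sources used here. Depth is unknown: ratios of genes under 0.3 RPKM in both libraries showed no steps of whole reads (the most frequent ratio, to 3 decimals, was shared by 5 of 1702 genes), so no counting interval could be given. The chromatin lists were not used here, since no gene annotation of mm9 was at hand.

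Log2 ratios used a pseudocount of 1 RPKM, a filter of 1 RPKM in either library and a limit of 4-fold. The ratio and call code was tested on simulated data, with changes planted in highly expressed genes only, so that test does not cover low values. Of 23947 symbols, 23792 matched RefSeq (GRCm38.p6), used for names and gene types, and 20418 were protein coding. Map7d3 and Svbp were found under older symbols. The members and lists were chosen with earlier results of these data known. Genes named were all 10 members; from each other list, candidates were the highest in each library and the 2 with the largest ratio past 4-fold in each comparison; and the genes nearest each member. Some genes were also named after their values were seen, where that rule did not reach them. They were Rbfox3, Pitx3, Tpx2, Tppp, Jakmip1, Ttll1, Katnal2 and Fign. Also among them were Nefm, Syt1, Neurod1, Clip2, Dpysl5, Nav1, Nav2 and those markers listed at 0 that the rule did not name. Alternatives were a pseudocount of 0.1, other filters, centring and rescaling without crystallins. Python 3.11.15, pandas 2.3.3, NumPy 2.4.6 and matplotlib 3.10.9 were used.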

Additional observations from a re-analysis of the deposited data

Results flagged for a closer look

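Tubb2a stood on opposite sides of forebrain in the lens libraries, with a log2 ratio of -2.58 in epithelium and 1.12 in fibers. The difference was not tested, as each group held 1 library, and both ratios share the forebrain library. Under the other settings the fiber ratio ran from 0.69 (rescaled without crystallins) to 1.31 (centred), and the epithelium ratio from -2.63 to -2.32.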

How the results depend on the processing

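No paired analysis was possible because each RNA group held 1 library, and for the same reason no library could be left out. Rescaling on protein-coding genes, and all alternatives for the 135 other microtubule genes, were chosen after seeing the data. Rescaling to equal totals without crystallins moved the median of genes present in both libraries from -0.05 to 0.02 (epithelium over forebrain), from -0.19 to -0.54 (fiber over forebrain) and from -0.20 to -0.62 (fiber over epithelium); on protein-coding genes the medians were 0.18, -0.38 and -0.62. The counts of the 10 genes against forebrain stayed within 1.5 times under these settings. Fiber over epithelium did not: with a pseudocount of 0.1, 2 were lower; after centring 4 were higher; under either rescaling 1 was higher. Of the 135 other genes, a pseudocount of 0.1 gave 20 lower and 4 higher in epithelium than in forebrain and 27 lower in fiber than in epithelium, and rescaling without crystallins gave 5 higher in fiber than in epithelium (8 before). The ratio of Tuba1a for fiber over forebrain changed sign after centring (0.15). The share of Tuba1a in alpha-tubulin was 94.9% in forebrain and 90.9% in epithelium over genes with at least 1 RPKM in every library, which leaves out Tuba1c. The share of all genes past 4-fold moved with both filter and pseudocount. Lower in epithelium than in forebrain were 1.71% with no filter and 6.85% at a pseudocount of 0.1, lower in fibers than in forebrain 5.79% and 21.8%, and lower in fibers than in epithelium 4.10% and 18.1%. The shares higher were 2.47% and 8.81%, 3.24% and 9.23%, and 1.89% and 5.47%.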

Other observations

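Motors that move along microtubules were measured in the same libraries. Of 21 transport kinesin and dynein genes, 3 were at least 4-fold lower in epithelium than in forebrain, among them Kif5a (10.7 RPKM in forebrain, 0.830 in epithelium and 0.381 in fibers) and Kif21b (11.5, 1.06 and 0.0736). Of all genes compared, 3.25% were that much lower in epithelium. In fibers 2 of the 21 were that much lower than in forebrain, beside 11.4% of all genes, and 3 higher, beside 6.37%. The kinesin gene Kif1a, known for carrying synaptic vesicle precursors, was at 13.1, 9.33 and 111.0 RPKM, and the dynein intermediate chain gene Dync1i1 at 0.836, 5.06 and 46.6. The dynactin gene Dctn2 was the highest of the list in both lens libraries, at 67.8 RPKM in epithelium and 145.3 in fibers. Of 7 microtubule-severing genes, Fignl1 alone passed 4-fold with the pseudocount, and was lower in fibers, at 19.4, 8.13 and 0.513 RPKM. Without the pseudocount, Katnal2 (2.68, 3.05 and 13 RPKM) was 4.86-fold higher in fibers than in forebrain. Fign (0.656, 2.06 and 3.38) was 5.16-fold higher. Of 12 neural progenitor markers, 5 were at least 4-fold lower in epithelium and 9 in fibers than in forebrain, beside the same shares of all genes. The intermediate filament gene Vim, which lens also uses, was at 411.4, 945.4 and 1169 RPKM.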
